A study of Mus musculus with 8 samples.

Results

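Cytosolic ribosomal proteins are the protein parts of the ribosomes that translate nuclear genes, and each belongs to the large or to the small ribosomal subunit. The genes described here were those whose platform symbol begins with Rpl or Rps and a digit, with Rplp0, Rplp1, Rplp2 and Rpsa. Kinases of the Rps6k group, like-named paralogues and pseudogenes were left out. The platform named 42 such genes on probe sets annotated to a single gene, 22 of the large and 20 of the small subunit, among 12393 genes named in this way. A further 26 ribosomal protein genes, 20 large and 6 small, were annotated only on probe sets shared with pseudogenes or other genes. Those 26 were not counted as members, and their probe sets are given below as counts, a few with values.

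The samples were 4 captures of primitive erythroid precursors, the first red cell precursors of the embryo, and 4 captures of epithelial cells, all cut by laser from frozen sections of yolk sac at embryonic day 9.5 of FVB/N mice. No sample was treated or mutant, and each pair, 1 erythroid and 1 epithelial sample, came from the same slides, with 2 to 4 yolk sacs from 2 litters pooled per replicate. The labels give 2 to 3 laser pulses for an erythroid cell and 1 for an epithelial cell, and 10 to 39 ng of RNA per labelling. Each sample was hybridised to 1 Affymetrix 430A 2.0 array, and the comparison asked which genes are enriched in the erythroid cells.

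The marker genes of the labelled cell types differed in the labelled direction, and neither capture was pure. Of 12 red cell markers tested, 9 rose in the erythroid captures, and 12 of 15 markers of visceral endoderm, the epithelium of the yolk sac, fell. Of 11 mesenchyme and mesothelium markers 7 rose, and their summed signal was 39765 to 61879 in the erythroid and 8932 to 35418 in the epithelial captures. Of 6 platelet markers 3 rose (sums 5229 to 18636 and 1651 to 2796), 1 of 4 endothelial markers rose (719 to 1724 and 409 to 830) and 1 of 3 macrophage markers fell (926 to 1232 and 1003 to 1142). No signal on these lists was at 0, which says nothing of purity, since signals below background also carry a value. The embryonic globins Hbb-bh1 and Hbb-y were bright in both captures. The part of other cells in the differences below was not tested. In such samples, fewer cells of a type and less RNA per cell cannot be told apart. For the Gapdh control, 3′ over 5′ signal, which is high in shortened RNA, was 38.7 to 44.4 in pairs 1 and 2 (the high-ratio pairs) and 6.999 to 17.4 in pairs 3 and 4 (the low-ratio pairs). Values within each of these sets stand beside several results.

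These proteins are built into ribosomes, and their transcripts are among the most abundant of a growing cell. Most of these transcripts begin with a C followed by a run of C and T, a start that ties their translation to growth signals through mTOR. Red cell precursors depend on a steady supply of ribosomes: in Diamond-Blackfan anaemia, loss of 1 copy of a ribosomal protein gene leads to a lack of red cells.

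The start sequences were read from RefSeq, build GRCm38.p6, to show this shared feature, which the choice of genes did not use. Of the 42 genes, 37 had an annotated start, and 8 of these (21.6%) began with C and at least 4 further C or T on the gene's strand at that exact base, against 467 of 17491 protein-coding genes (2.67%). Within 5 bases before and 10 after the start, 18 of 37 (48.6%) held such a tract, against 21.5% of protein-coding genes. The 8 genes with the tract at the annotated start are shown 5′ to 3′ from 10 bases before the start, 30 bases in all, with the tract in capitals. The start base is the first capital.
Rpl14 at chr9:120571507-120571536, plus strand: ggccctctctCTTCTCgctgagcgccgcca
Rpl35 at chr2:39005112-39005141, minus strand: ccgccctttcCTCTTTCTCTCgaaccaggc
Rpl38 at chr11:114668570-114668599, plus strand: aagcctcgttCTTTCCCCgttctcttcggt
Rplp2 at chr7:141447641-141447670, plus strand: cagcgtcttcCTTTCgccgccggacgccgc
Rps6 at chr4:86857348-86857377, minus strand: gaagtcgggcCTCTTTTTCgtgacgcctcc
Rps10 at chr17:27635225-27635254, minus strand: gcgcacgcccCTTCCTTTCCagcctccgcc
Rps18 at chr17:33955646-33955675, minus strand: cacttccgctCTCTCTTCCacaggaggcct
Rps27 at chr3:90213629-90213658, minus strand: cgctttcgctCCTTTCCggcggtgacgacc

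Of the genes that rose in the erythroid captures (below), 3 are shown in the same way for contrast. The annotated start base of Rps9 is a T inside a run of C and T, that of Rps26 lies some bases before such a run, and the window of Rps15 holds no run of 5 or more.
Rps9 at chr7:3704031-3704060, plus strand: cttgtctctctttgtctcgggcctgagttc
Rps15 at chr10:80292421-80292450, plus strand: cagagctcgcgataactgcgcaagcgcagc
Rps26 at chr10:128626487-128626516, minus strand: gcaagccgccggatcctctttcgagtcttg
The 7 tested genes with the tract at the annotated start had a median difference of 0.11 on the log2 scale between captures, with a range of -0.02 to 0.35. The 29 with a start and no tract there had a median of 0.27, with a range of -0.44 to 0.84. These ranges overlap, and an annotated start can lie some bases from the one used in these cells.

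Ribosomal protein transcripts were bright in both captures. Of the 42 genes, 41 passed the filter on low values, and 40 of these lay above the background level of the array on all 8 arrays. Between 33 and 34 of the 41 were among the brightest 5% of probe sets on each array, and 19 to 29 among the brightest 1%. The median member stood between the 98.95th and the 99.47th percentile of its array. Each gene was read from its brightest tested probe set, a choice that raises its rank. By mean rank over the arrays, the median of all genes read in this way was at percentile 74.7, and that of the members at 99.1. The gene that did not pass was Rps27, whose single named probe set gave 78.4, 101, 136 and 190 in erythroid pairs 1 to 4 and 120, 94.3, 60.1 and 60.7 in the epithelial captures. That probe set lay above background on 4 of 8 arrays, and its groups overlapped. A probe set annotated to Rps27 together with another gene gave 12759 to 25513 over the 8 arrays and 0.19 ± 0.10, without a call.

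Most ribosomal protein transcripts stood slightly higher in the erythroid captures, and 8 of 41 rose while none fell. The calls were made with limma on log2 values with the pair as a block, at an adjusted p under 0.05 over 11449 probe sets. Among all 7191 genes tested, 6.02% rose and 8.87% fell, so 40.4% of all calls were higher, and 27.4% with the arrays centred on their medians. In the large subunit 4 of 22 rose, Rpl4, Rpl7, Rpl11 and Rpl27, and the median difference over the 22 was 0.21 on the log2 scale, a 1.16-fold higher level. In the small subunit 4 of 19 rose, Rps4x, Rps9, Rps15 and Rps26, with a median of 0.27, or 1.21-fold. The median over all genes tested was -0.01. Values above 0 were found for 19 of 22 large and 16 of 19 small subunit genes, against 49.6% of all genes tested. Of the 41, 21 were higher in all 4 pairs, against 17.9% of all genes. None was lower in all 4 pairs, against 20.3%.

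The number of calls depended on the model. With median centring of the arrays, without the pair term and without a variance trend, none of the 41 was called with limma (1, 7 and 7 at an unadjusted p under 0.05), and without pair 3 or without pair 4 the calls were 1 each, that of Rps9. The other 7 genes lost their calls in both cases. The medians over the members did not turn: relative to all genes they were 0.16 to 0.28 in the large and 0.15 to 0.52 in the small subunit over the 18 alternatives.

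**Figure D1:**
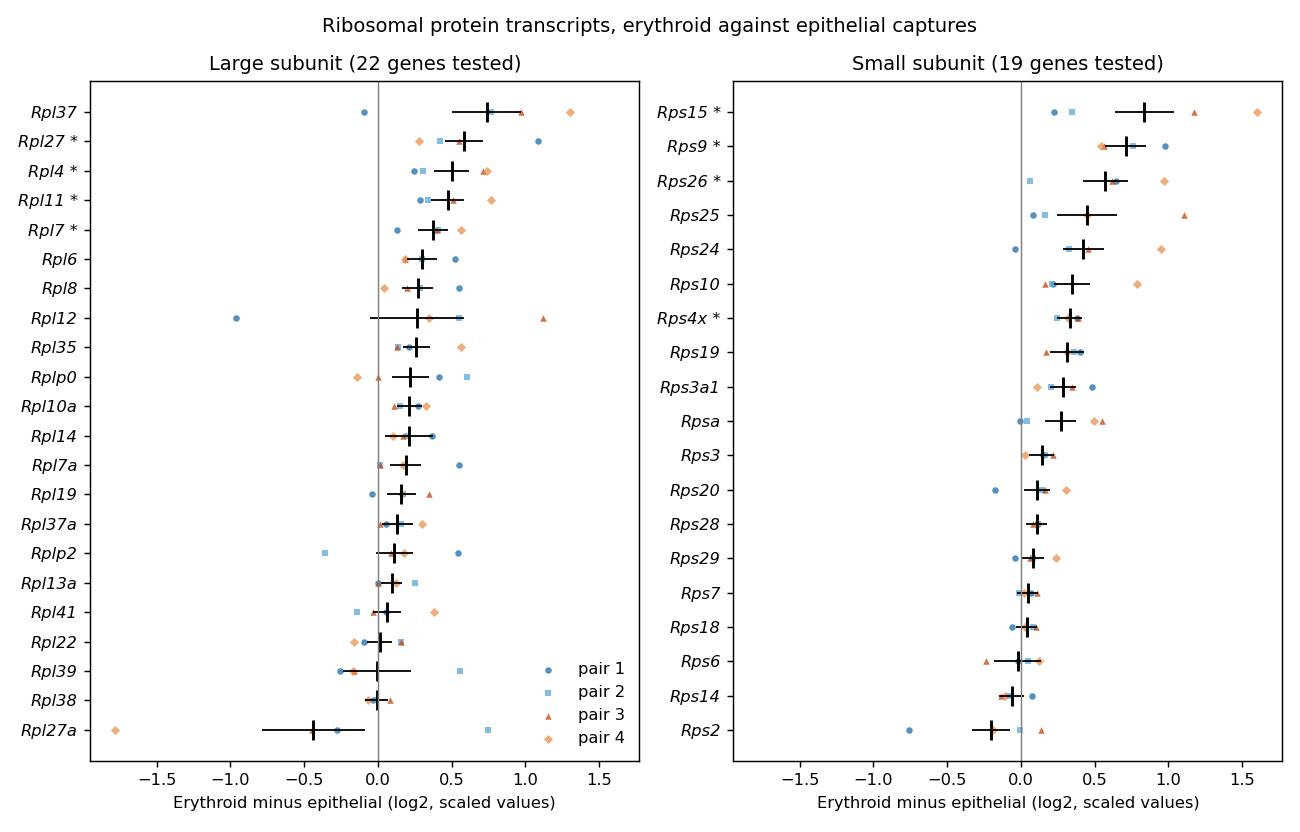
Each row is 1 gene of the large (left) or small (right) subunit. The horizontal axis gives the erythroid minus epithelial difference on the log2 scale after quantile scaling, points are the 4 pairs, the upright bar is the fitted value and the line its standard error. Asterisks mark the 8 genes with an adjusted p under 0.05, and 35 of the 41 fitted values lie above 0.

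Among the large subunit genes, Rpl27 showed the largest difference of those called. Its deposited signal was 18240, 13571, 21988 and 17579 in erythroid pairs 1 to 4 and 8641, 8287, 12810 and 14678 in the epithelial samples. The erythroid sample was brighter in every pair, and the groups overlapped because the brightest epithelial sample exceeded the dimmest erythroid one. The fit gave 0.58 ± 0.13 on the log2 scale (SE, n = 4 pairs), 1.499-fold, with a limma adjusted p of 0.0143. The other tested probe sets of Rpl27 gave 0.44 and 0.37, and each was called.

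Rpl4, whose protein reaches into the tunnel through which the new peptide leaves the ribosome, gave 11172, 13410, 21582 and 12378 in the erythroid captures and 10135, 8896, 11218 and 8203 in the epithelial ones. Pair 3 held the highest erythroid value, and pair 1 showed the smallest difference. The gene rose by 0.50 ± 0.12 (SE, n = 4 pairs; 1.42-fold; limma adjusted p = 0.0187), at 0.28 in the high-ratio and 0.73 in the low-ratio pairs. Of the 3 other tunnel or exit-site proteins measured here, Rpl19 gave 0.16, Rpl35 0.26 and Rpl39 -0.01, and none was called.

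Rpl11 binds the smallest ribosomal RNA of the large subunit and, when free, the p53 regulator Mdm2. Its signal was 14587, 15607, 15465 and 10502 in the erythroid and 12513, 9931, 10025 and 7150 in the epithelial captures. Both values of pair 4 were the lowest of their group, and the difference had the same sign in all pairs. The fit gave 0.48 ± 0.11 (SE, n = 4 pairs; 1.39-fold; limma adjusted p = 0.0187). Rpl7 was read from a probe set with 16396, 20143, 19562 and 11304 in the erythroid and 16027, 11679, 12820 and 8484 in the epithelial captures. It rose by 0.37 ± 0.10 (SE, n = 4 pairs; limma adjusted p = 0.0337). Its call also ended without pair 2 and under deposited scaling. A dimmer probe set of Rpl7 gave 9890, 13114, 12290 and 8554 against 6880, 5841, 6045 and 4924, with no overlap, a difference of 0.88 ± 0.12 (limma adjusted p = 0.00213). The dimmest gave 0.75 ± 0.16 and did not overlap either.

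The stalk proteins Rplp0 and Rplp2, which draw elongation factors to the ribosome, were not called, at 0.22 ± 0.12 and 0.11 ± 0.12. Rplp0 gave 16256, 24141, 32285 and 14636 in the erythroid and 12707, 12036, 24433 and 14996 in the epithelial captures. It stood at 0.51 in the high-ratio and -0.07 in the low-ratio pairs, and this difference between sets did not pass (limma adjusted p = 0.103). The largest value without a call in the large subunit was that of Rpl37 at 0.74 ± 0.23 (limma adjusted p = 0.059), with -0.09 in pair 1 and 0.77 to 1.31 in the others. Its signal was 1902, 2285, 1296 and 2339 in the erythroid and 2045, 1368, 683 and 1008 in the epithelial captures, so that the groups overlapped. A brighter probe set annotated to Rpl37 together with another gene (14136 to 34937) gave 0.25 ± 0.09 without a call. Next among the uncalled genes were Rpl6 at 0.30 and Rpl8 at 0.27. Below 0 stood Rpl27a at -0.44 ± 0.35, Rpl38 at -0.01 ± 0.08 and Rpl39 at -0.01 ± 0.23. The single-gene probe set of Rpl27a was dim, with 62.6 in the erythroid and 228 in the epithelial sample of pair 4, and in the low-ratio pairs alone it was called lower (-1.19, limma adjusted p = 0.0292). A probe set annotated to Rpl27a together with other genes was bright on all 8 arrays (11558 to 27271) and gave 0.17 ± 0.09 without a call, at 0.26 in the low-ratio pairs. The 2 probe sets thus differed in sign. Rpl38, known for its part in the translation of Hox messages, was bright, at a mean signal of 26422 in the erythroid and 22888 in the epithelial captures.

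**Figure D2:**
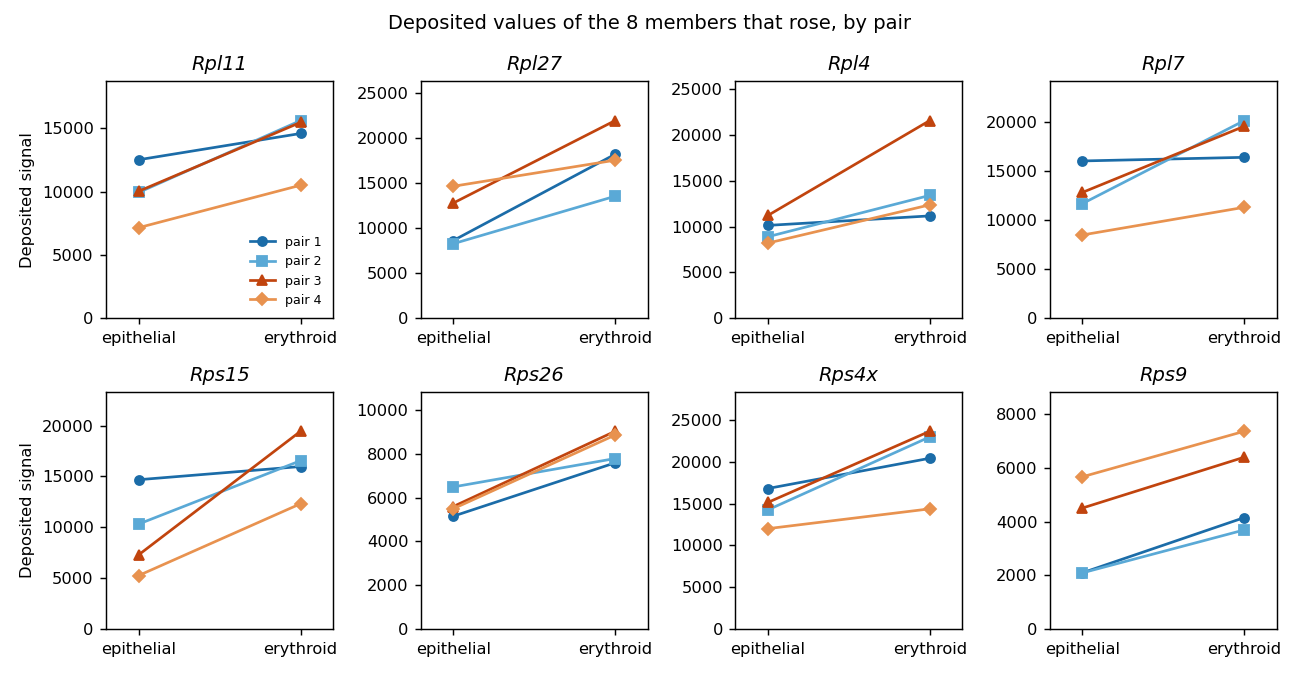
Deposited signal of the 8 members that rose, in the epithelial (left) and erythroid (right) sample of each pair, with 1 line per pair. All lines rise, and for Rps26 the 4 erythroid values (7601 to 9044) lie above the 4 epithelial values (5158 to 6497).

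In the small subunit the largest difference was that of Rps15, a protein of the head that is needed for the export of small subunit precursors from the nucleus. It gave 15969, 16543, 19437 and 12311 in the erythroid and 14673, 10313, 7288 and 5252 in the epithelial captures. The erythroid values spread less than the epithelial ones, which ranged from 14673 in pair 1 to 5252 in pair 4. The fit gave 0.84 ± 0.20 (SE, n = 4 pairs; 1.78-fold; limma adjusted p = 0.0202). The high-ratio pairs gave 0.28 and the low-ratio pairs 1.39. This interaction was called (limma adjusted p = 0.00822), the 1 such call among the 41 genes, against 2.00% of all genes, and it ended under deposited scaling, 75th percentile centring and without a variance trend. The dimmer probe set of Rps15 gave 0.01 and 1.74 (limma adjusted p of the interaction 0.00636). The part of RNA length in this difference was not tested. Most marker lists were also farther from 0 in the low-ratio pairs. The median was 1.25 in the high-ratio and 3.13 in the low-ratio pairs for red cell, -1.09 and -2.03 for visceral endoderm, 0.34 and 2.39 for mesenchyme, 1.05 and 2.17 for platelet, 0.09 and 0.93 for endothelial and -0.32 and -0.15 for macrophage markers. Their part was not tested either.

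Rps9, a protein near the entry of the message channel, gave 4152, 3692, 6405 and 7371 in the erythroid and 2093, 2091, 4508 and 5674 in the epithelial captures. Pairs 3 and 4 were brighter than pairs 1 and 2 in both cell types, and the erythroid sample was brighter in every pair. The gene rose by 0.71 ± 0.14 (SE, n = 4 pairs; 1.63-fold; limma adjusted p = 0.00909). It kept its call in 13 of 18 alternatives, the most of the 8 genes. Its dimmer probe sets gave 0.52 and 0.72, and neither was called in limma.

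Rps26, which lies at the exit of the message channel, gave 7601, 7797, 9044 and 8872 in the erythroid and 5158, 6497, 5601 and 5499 in the epithelial captures. These groups did not overlap, which in deposited values held for 2 of the 41 genes, Rps26 and Rps19, both higher in erythroid captures, against 13.7% of all genes in either direction and 6.22% with the erythroid values higher. The gene rose by 0.57 ± 0.15 (SE, n = 4 pairs; 1.49-fold; limma adjusted p = 0.0298). Its call also ended without pair 1. Rps4x, the X-linked form of the small subunit protein S4, gave 20426, 22980, 23659 and 14371 against 16807, 14249, 15139 and 12003. It rose by 0.33 ± 0.08 (limma adjusted p = 0.0266), with differences of 0.25 to 0.38 in the 4 pairs, and its call too ended without pair 1.

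Of the 11 genes listed for Diamond-Blackfan anaemia 6 were named on the array by a probe set of their own. All 6 had values above 0, as did 35 of all 41 members. Shared probe sets of other listed genes lay on both sides of 0. They included -0.10 and -0.44 for Rpl5, -0.12 for Rpl15, 0.04 for Rpl26 and 0.08 for Rpl35a, all without a call. Of the 6, Rpl11 and Rps26 rose. Rps19, the gene first tied to the disease, gave 7456, 9078, 7248 and 7405 in the erythroid and 5993, 6224, 6540 and 6386 in the epithelial captures. The groups did not overlap, yet the scaled difference of 0.31 ± 0.12 did not pass (SE, n = 4 pairs; limma adjusted p = 0.0986). Rps24 at 0.42 ± 0.14, Rps10 at 0.35 ± 0.12 and Rps7 at 0.05 ± 0.07 were not called on their brightest probe sets. The median of the 6 was 0.38, at 0.26 in the high-ratio and 0.56 in the low-ratio pairs. The largest spread between sets among the uncalled genes of this list was that of Rps24, with 20158, 23116, 16426 and 10588 in the erythroid and 21974, 13892, 10729 and 6543 in the epithelial captures. It was at -0.04 in pair 1 and 0.95 in pair 4.

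Among the other small subunit genes, Rps25 gave 0.45 ± 0.20 and Rpsa, also known as the laminin receptor precursor, 0.27 ± 0.11, without a call. Rpsa gave 27923, 26489, 45042 and 20671 in the erythroid and 29456, 19047, 23982 and 15246 in the epithelial captures. It stood at 0.02 in the high-ratio and 0.52 in the low-ratio pairs. Rps3a1 at 0.29 ± 0.09 just missed the threshold (limma adjusted p = 0.052). Of the 9 proteins of the head that were tested, all had values above 0, against 16 of all 19 small subunit genes. Rps15 alone of the 9 rose, and their median was 0.14. Below 0 stood Rps2 at -0.20 ± 0.13, Rps14 at -0.06 ± 0.08 and Rps6, the target of the S6 kinases, at -0.02 ± 0.16. For Rps6 and Rps2 the sign depended on the probe set. Probe sets shared by Rps6 and a pseudogene included 0.83 and 0.55, called higher, and 0.56, 0.11 and 0.03 without a call. Rps2 spread widely, from 14483 to 39906 in the erythroid captures, and in the high-ratio pairs alone it was called lower (-0.39, limma adjusted p = 0.0318). This value came from pair 1, at -0.76, while pair 2 stood at -0.01. Bright probe sets annotated to Rps2 together with other genes had the opposite sign in the high-ratio pairs, at 0.29 and 0.19. Over all pairs these gave 0.08 and 0.02 without a call. The remaining genes, Rpl10a, Rpl12, Rpl14, Rpl7a, Rpl22, Rpl37a, Rps3, Rps20, Rps28 and Rps29, lay between 0.01 and 0.27 with no call on the probe sets used. For Rpl12 and Rpl14 brighter probe sets shared with other annotations differed from this. Those of Rpl12 included 0.68 and 0.45, each called higher. Those of Rpl14 included 0.80, 0.37 and 0.34, called higher, and 0.30 and 0.24 without a call.

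Pair by pair, the median over the 41 genes was 0.12, 0.17, 0.17 and 0.23 in pairs 1 to 4 after scaling, and 26, 35, 34 and 34 genes were above 0. In the unscaled deposited values the medians were 0.03, 0.55, 0.45 and 0.21. The order of the pairs thus differed with scaling, and pair 1 was the lowest either way. The differences of single members spread around these medians with an SD of 0.38, 0.24, 0.36 and 0.51, below the 0.72 to 1.10 of all other genes. This comparison was not matched for brightness. Outside the ribosomal protein probe sets, the median absolute difference was 0.08 in the brightest 0.5% and 0.37 beyond the brightest 10%.

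The difference was smaller on the brightest probe sets. Many of these genes were measured by several probe sets, 81 of which passed the filter for the 41 genes. Probe sets of 1 gene share their source and are not independent. Of the 81, 24 were called higher and 0 lower, against 6.19% and 7.69% of all probe sets. Of the 22 that lay, by mean rank over the arrays, among the brightest 0.5% of all, none was called by limma, and their median was 0.07. The other 46 probe sets of that brightness gave a median of -0.06, with 1 called higher and 3 lower. Without regard to sign, the median difference was 0.09 for the 22 and 0.08 for the 46. In the band from the brightest 1% to 3%, 16 of 25 were called higher at a median of 0.44, while 42 of 383 other probe sets were. From 3% to 10% it was 5 of 12 members at a median of 0.65, against 164 of 1444 others. These bands were chosen after the values were seen. Quantile scaling gives every array the same highest values. With the deposited scaling the median of the brightest 22 was 0.25, with 3 called higher, against 0.48 and 14 called in the band from 1% to 3%. Across the 41 genes, each read from its brightest probe set on the same 8 arrays, the difference and the brightness rank had a Spearman rho of -0.43 and a Pearson r of 0.18, given as a description.

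**Figure D3:**
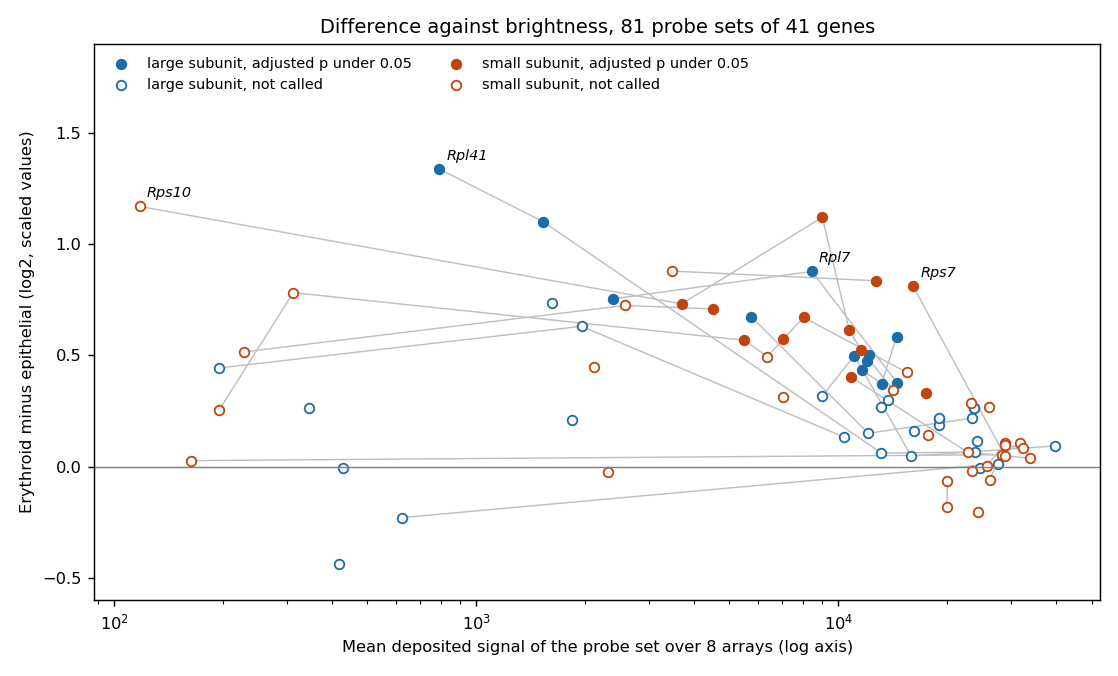
Each point is 1 of 81 tested probe sets of the 41 genes, with its mean deposited signal over 8 arrays on a log axis and its erythroid minus epithelial difference on the log2 scale. Grey lines join probe sets of 1 gene, and filled points have an adjusted p under 0.05. The 22 brightest lie between -0.20 and 0.29, and the called points lie to their left.

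Within genes the picture was mixed. Of 40 dimmer probe sets of 17 genes, 25 gave a higher value than the brightest of their gene, and in Rpl22, Rpl27, Rps14, Rps20 and Rps28 all of them gave a lower one. Of the 17 genes, 7 (Rpl13a, Rpl35, Rpl41, Rps7, Rps10, Rps18 and Rps24) had no call on the brightest and at least 1 call, always higher, on a dimmer one. With any of its probe sets counted, 15 of the 41 genes were called higher and 0 lower, against 6.97% and 9.62% of all genes counted in this way. This count gives genes with more probe sets more chances.

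Rps7 shows the contrast. Its brightest probe set gave 31445, 31792, 42550 and 18540 in the erythroid and 32785, 24026, 32197 and 17745 in the epithelial captures, and differed by 0.05 ± 0.07. Its dimmer one gave 18319, 18175, 33528 and 15130 against 7350, 7312, 15435 and 13446, a difference of 0.81 ± 0.15 (limma adjusted p = 0.00709). The dimmer probe set was higher in all 4 pairs, by 1.17 in the high-ratio and 0.45 in the low-ratio pairs.

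For Rps10, 4 of 5 dimmer probe sets were called, the largest at 1.12 ± 0.16 (limma adjusted p = 0.00212) with 15252, 14059, 7437 and 12815 against 7224, 4155, 5021 and 6222 and no overlap. Rpl41, whose product is among the shortest proteins of the cell, gave 0.07 ± 0.09 on its brightest probe set and 1.34 ± 0.34 (limma adjusted p = 0.0249), 1.10 ± 0.25 (limma adjusted p = 0.0164) and 0.06 ± 0.14 on dimmer ones. In these data the probe sets of 1 gene thus disagreed on size, and none of the tested probe sets of a member was called lower. Rps28 and Rps20 are examples without such a split: their 3 tested probe sets each lay between -0.02 and 0.11.

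Probe sets shared with pseudogenes or other genes were called higher in 21.7%, at a median of 0.19. The share was 29.6% at a median of 0.27 for the 81 probe sets of the members, and 5.90% for all other probe sets. Of 66 shared probe sets tested for the large subunit, 17 were called higher and 1 lower, at a median of 0.21. Of 26 tested for the small subunit, 3 were called higher and 0 lower, at a median of 0.19. The probe set called lower was annotated also to Tax1bp3, a gene for a PDZ protein, and differed by -0.45. By brightness, 7 of 14 of these probe sets in the band from 1% to 3% were called higher, and 2 of 31 in the brightest 0.5%. Transcripts of processed pseudogenes can match such probe sets, and probe sets named for 1 gene may match them too.

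**Figure D4:**
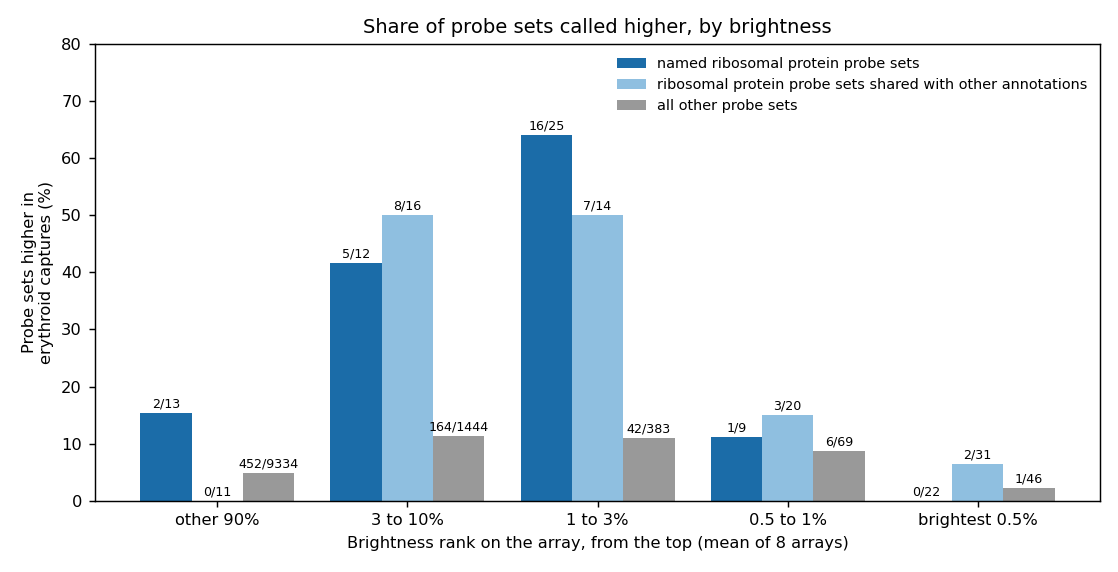
Bars give the percentage of probe sets called higher in erythroid captures within each band of mean brightness, for the probe sets of the 41 named genes, those shared with other annotations and all others. Counts stand above the bars. In the band from 1% to 3% the counts were 16 of 25, 7 of 14 and 42 of 383.

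Other genes of the ribosome and of its making were counted on lists that were chosen with earlier results known, and no difference from the members was tested. Of 73 mitochondrial ribosomal protein genes, which serve the separate ribosomes of mitochondria, 6 rose and 1 fell, at a median of 0.11. These shares were 8.22% and 1.37%, against 6.02% and 8.87% of all genes tested. Mrpl33 rose by 1.16 ± 0.23 and Mrpl35 by 0.87 ± 0.21, and Mrps26 fell by 0.56. Of 75 ribosome assembly factors 2 rose (2.67%) and 0 fell, at a median of 0.16. The 2 were Wdr12 at 0.97 ± 0.24 and Ebna1bp2 at 0.78 ± 0.18. Both act on large subunit precursors. Of 10 genes of RNA polymerase I, the enzyme that makes ribosomal RNA, 0 were called in limma, at a median of 0.19 (0 at an unadjusted p under 0.05).

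Of 10 elongation and termination factors 2 rose, Etf1, which reads stop codons, by 0.74 ± 0.17 and Eef1b2 by 0.43 ± 0.11. All 10 had values above 0, against 49.6% of all genes tested. Of 5 further proteins of or on the ribosome, Naca, a partner of the emerging peptide, rose by 0.64 ± 0.12, and Fau, which encodes a small subunit protein under another name, stood at 0.48 ± 0.15 without a call. Of the like-named genes left out by the rule, 5 were tested and 0 were called by limma (3 at an unadjusted p under 0.05). Rpl22l1 gave 0.34 ± 0.11 (limma adjusted p = 0.0624) beside 0.01 ± 0.08 for its paralogue Rpl22, and Rps27l gave 0.30 ± 0.13. Rps4l lay the other way, at -0.75 ± 0.31 (limma adjusted p = 0.136), and 2 of the 5 had values below 0.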

How the data were processed

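Per the labels, 8 samples were hybridised to 1 array each, and the authors deposited 1 intensity (MAS5 signal, linear scale) per probe set. GCOS, MAS5 and affy are named in the submitters' processing notes, without a version in the sources used here. Each array's deposited intensities had a mean of 500 after trimming 2% at each end. Of 22626 probe sets besides 64 controls, 20380 were annotated to 1 gene, 691 to several and 1555 to none here. No gene was counted from those annotated to several. Gene identifiers matched RefSeq for 20351.

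An offset of 8.14 (10th percentile of all values) was added before log2. Array medians spanned 0.59, above the limit of 0.5, so arrays were quantile normalised. Probe sets at or above the array median on at least 4 of 8 arrays were tested (11449). The fit used limma 3.58.1 in R 4.3.3 with terms for pair and cell type, a variance trend and 3 residual degrees of freedom. P-values are two-sided, adjusted by Benjamini and Hochberg's method over all tested probe sets, at a threshold of 0.05. A gene was read from its brightest tested probe set. Background was the 95th percentile of 117 receptor, keratin-associated and defensin probe sets. Differences between sets of pairs were tested as an interaction. Pairing comes from the labels' protocols, and deviations within pairs correlated at 0.44, 0.34, 0.31 and 0.54. The number of arrays limits the precision.

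The members, lists, tests and the rule for named genes were chosen with earlier results of these data known. The rule named the called genes, the 3 largest uncalled in each direction and subunit, the anaemia genes, the stalk and Rpsa, genes with an interaction and genes whose probe sets differ in call, and the 2 largest called in each direction of the other lists. Rpl14, Rpl19, Rpl22, Rpl22l1, Rps3a1, Rps4l, Rps20, Rps27, Rps27l, Rps28, Fau, Naca, Tax1bp3 and the genes listed as remaining were named after their values were seen. The shared probe sets quoted for single genes were also chosen after their values were seen. On simulated data for this comparison (200 of 11449 probe sets changed in each run) the procedure called 65.6% of changes of 2 on the log2 scale, 19.2% of changes of 1 and 0.8% of changes of 0.5. The changed probe sets were drawn from all those tested. The median standard error was 0.25 over all genes tested and 0.11 over the members, so these rates do not describe the members.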

Additional observations from a re-analysis of the deposited data

Results flagged for a closer look

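In each cell type, the 41 genes were checked for a sample far from the other 3, which made 82 groups, and chance alone marks about 1 in 20 groups. There were 5 such groups, given here by the gap to the nearest sample as a share of the range of log2 deposited values. In the erythroid captures pair 4 was the low sample for Rpl11 (share 0.8294, at 10502), Rpl38 (0.906, at 15740 against 29028 to 30921) and Rps28 (0.932, at 15419 against 35916 to 38189), and pair 2 was the high one for Rps19 (0.874, at 9078). In the epithelial captures pair 4 was the high sample for Rpl14 (0.866, at 2336 against 1460 to 1555). The highest signal on the erythroid array of pair 4 was 24645, below that of the other erythroid arrays (46259 to 58408). The epithelial array of pair 4 was also low, at 25681 against 37646 to 51492 on the other epithelial arrays.

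The contrast of Rps15 differed between sets of pairs by 1.10 on the log2 scale (limma adjusted p of the interaction 0.00822), larger in pairs 3 and 4, whose control genes also had lower ratios of 3′ to 5′ signal.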

How the results depend on the processing

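Over 18 alternatives, of which the dimmest probe set was chosen after seeing the data, the medians of both subunits stayed above 0, and none of the 8 called genes turned its direction. The calls, 4 higher in each subunit, were less stable. In the large and small subunit they were 0 and 0 without the pair term (no replicate block), 0 and 0 with median centring, 1 and 2 with centring on the 75th percentile, 1 and 2 with no filter, 0 and 0 without a variance trend, and 2 and 0 (of 9 and 7 tested) when x, s and a probe sets were dropped. Leaving out replicates gave 0 to 5 higher in the large and 1 to 4 in the small subunit, with the fewest without replicate 3 and without replicate 4. The high-ratio pairs alone gave 3 and 1 higher and 1 lower (Rps2), the low-ratio pairs alone 6 and 8 higher and 1 lower (Rpl27a). Over all genes, 433 higher and 638 lower became 109 and 212 without the pair term, 106 and 246 without a variance trend, 118 to 446 and 248 to 603 with a replicate left out (185 and 340 without replicate 3, 118 and 248 without replicate 4), 249 and 393 in the high-ratio pairs, and 882 and 1020 in the low-ratio pairs. The share of calls that were higher was 40.4%, and 27.4% with median centring, which moved the median of all genes from -0.01 to -0.14. The interaction of Rps15 was the 1 call among members, with 0 under the deposited scaling, the 75th percentile and no variance trend. The causes were not tested. Signal over background limits the single-gene probe sets of Rps27, above background on 4 of 8 arrays, and of Rpl27a, above it on 7.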
